A study of Mus musculus with 2 samples.

Results

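The proteasome is the barrel-shaped protease that breaks down ubiquitin-tagged proteins, and its subunits are encoded by the Psm genes. Their transcripts were compared between testes of Mili-/- mice, homozygous for a mutation of the Piwi gene Piwil2, and testes of heterozygous Mili+/- mice, both at day 10 after birth. Both genotypes carry at least 1 mutant allele, and no wild-type array belonged to the series. Per genotype, 1 array was hybridised with polyadenylated RNA, and the labels give neither the strain, nor how the mutation was made, nor how many mice were pooled. In the mutant, spermatogenesis stops early in meiotic prophase per the labels, and day 10 precedes the first apoptotic cells. With 1 array each, no value below has a replicate and no test was possible, so all statements describe these 2 arrays. The annotation lists no probe set for Piwil2, so the genotypes could not be checked by their target.

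Members were the genes whose symbol begins with Psm, a letter from a to g and a digit, and which had a probe set annotated to that symbol alone. Of 8251 genes with such a probe set, 46 met this rule, read by 58 probe sets, and each gene took its probe set with the highest mean signal. They comprised 17 of the 19 core genes in RefSeq (Psma and Psmb), 23 of the 25 regulatory genes (Psmc, Psmd and Psme) and the 4 Psmg assembly chaperones. The pattern also took in 2 genes that encode no subunit, Psmc3ip and Psme3ip1, which are kept apart below. Psma8, the germ cell form of an alpha subunit, Psmb11 of the thymus, the activator genes Psme2 and Psme2b, and the inhibitor gene Psmf1 had no probe set with 1 symbol and were not analysed as members.

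In the core particle, rings of alpha subunits (Psma) gate the entry and rings of beta subunits (Psmb) hold the catalytic sites. The regulatory particle unfolds substrates with its ATPases (Psmc), and its non-ATPase subunits (Psmd) bind and remove ubiquitin. Psme genes encode activators that cap the core in its place. In mouse germ cells the proteasome acts on meiotic chromosomes and in the later removal of histones, and Psma8 and Psme4 are known for roles in mouse spermatogenesis.

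Subunit genes are known to share promoter elements, so the windows from 250 bases before to 50 bases after the start of each gene were searched on both strands (RefSeq, build GRCm38.p6). Of the 44 subunit and chaperone genes, 37 had such a window. The ETS family core CCGGAAG was held by 14 of them (37.8%), against 22.1% of 4147 genes that were compared on these arrays and 9.93% of all 27025 genes with a window. The antioxidant response element core TGACNNNGC, part of the element through which the factor encoded by Nfe2l1 raises subunit transcription, was held by 6 (16.2%), against 17.0% of compared genes and 14% of all genes. The CCAAT box was held by 13 (35.1%), against 43.3% of compared genes and 41.1% of all genes. A match is a description of the letters and no evidence of binding. The first set shows, for 5 regulatory genes, the ETS core nearest the start among matches before it. The second shows the antioxidant core before the start of 2 catalytic core genes and a chaperone gene. Cores are in capitals, and matches after the start are not shown.
Psmc1, chr12:100110154-100110200, plus strand: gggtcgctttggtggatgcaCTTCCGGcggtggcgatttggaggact
Psmc6, chr14:45329704-45329750, plus strand: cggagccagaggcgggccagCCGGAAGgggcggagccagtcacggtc
Psmd6, chr14:14120964-14121010, minus strand: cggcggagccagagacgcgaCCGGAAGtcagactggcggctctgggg
Psmd12, chr11:107479491-107479527, plus strand: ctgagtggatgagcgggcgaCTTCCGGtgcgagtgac
Psme4, chr11:30771702-30771748, plus strand: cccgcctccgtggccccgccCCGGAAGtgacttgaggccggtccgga
Psmb5, chr14:54618014-54618062, minus strand: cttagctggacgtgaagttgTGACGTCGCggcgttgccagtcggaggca
Psmb6, chr11:70525328-70525356, plus strand: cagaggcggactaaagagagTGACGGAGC
Psmd9, chr5:123228139-123228187, plus strand: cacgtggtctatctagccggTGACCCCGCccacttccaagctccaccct

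Differences are given as log2 of the Mili-/- signal minus log2 of the Mili+/- signal after each array was centred on its median. Centring subtracted 0.11 from every difference, the log2 gap between the array medians, which take in dim probe sets. The sign of a negative difference smaller than that depends on it, so members are described relative to the median of all genes. A gene was compared only if it reached the median of an array, 41.55 for Mili-/- or 38.5 for Mili+/-, which left 5095 genes with a median difference of -0.13 and a central 95% range from -0.69 to 0.58. Without centring the median of the genes compared was -0.016, so most of the -0.13 came from the centring. A member near -0.13 lay at the middle of all genes. The only spread available was how far different probe sets for a gene lay apart, an SD of 0.31 over 720 genes. It holds no variation between mice or between arrays, so it is no error of the genotype difference. Over 4 members with several probe sets past the filter it was 0.23. Among 164 genes whose probe sets reached the 75th percentile on both arrays, the level of most subunits, that SD was 0.17.

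Most proteasome transcripts had similar signals on the 2 arrays. Of 40 measured core and regulatory genes, 37 passed the brightness filter, 34 of them at or above the 75th percentile on both arrays, and all 37 lay inside the central 95% range. The 16 compared core genes had a median difference of -0.17, with 11 below and 5 above the median of all genes. The 21 compared regulatory genes had a median of -0.12, with 10 below and 11 above. Relative to the median of all compared genes, the core median stood at -0.05 and the regulatory median at 0.004. In whole-testis RNA, fewer cells of a type and less RNA per cell cannot be told apart.

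No core, regulatory or Psmg gene among the 41 compared was at least 2-fold higher or lower. Among all 5095 genes, 0.844% passed 2-fold, 0.314% higher and 0.53% lower in Mili-/-. At 1.5-fold, 1 of the 41 was lower, the chaperone gene Psmg2, and 0 were higher. The share over all genes was 7.52%, with 5.04% lower and 2.47% higher, but fewer genes pass this fold among bright ones, where most members lay. At or above the 75th percentile on both arrays, 46 of 2454 genes were at least 1.5-fold lower and 4 higher. None of the 34 core and regulatory genes at this brightness was, and Psmg2 did not reach it. All these folds were counted around 0, although the centred median was -0.13 for the genes compared and for the brighter set. The centring therefore favoured lower over higher counts, and folds around the median were not counted. The spread among core genes at or above the 75th percentile on both arrays was an SD of 0.11 (15 genes), and that among regulatory genes 0.15 (19 genes). All 2454 genes at this brightness had an SD of 0.21. That set has only a lower bound on signal, so members and other genes were not matched for brightness within it.

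**Figure D1:**
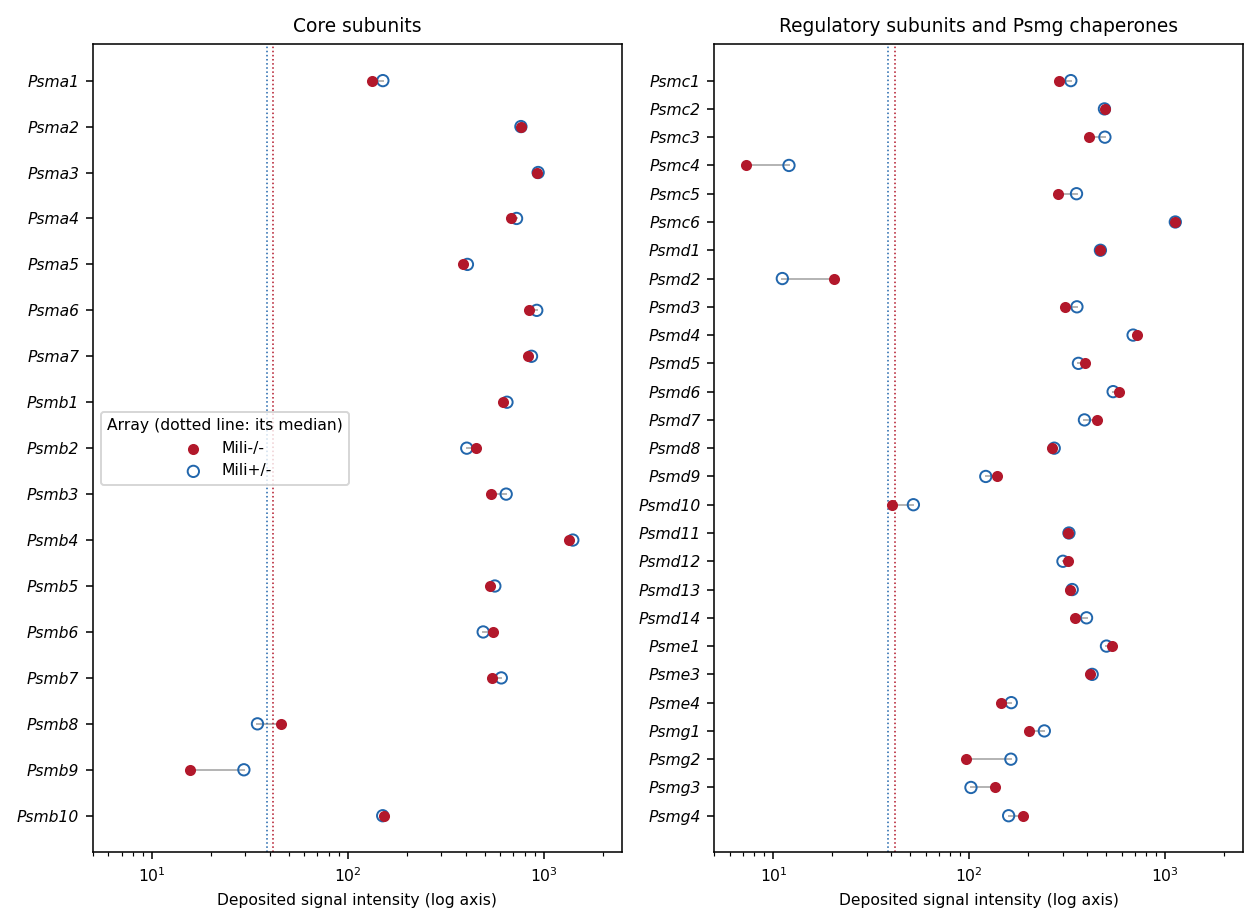
Deposited signal intensity (log axis) of each proteasome gene in the Mili-/- array (filled red) and the Mili+/- array (open blue), with dotted lines at the array medians of 41.55 and 38.5. Most pairs lie close together at high signal, and Psmb9, Psmc4 and Psmd2 lie below the medians.

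The alpha ring genes lay close together. Psma2 had signals of 767 in Mili-/- and 765.5 in Mili+/- (-0.11), and Psma3 had 925 and 937 (-0.13). Psma1 was the lowest of the ring, with 132.5 in Mili-/- and 151 in Mili+/- (-0.30), followed by Psma6 with 845.5 and 922 (-0.24). Psma4 stood at -0.20, Psma5 at -0.18 and Psma7 at -0.17. All 7 lay between -0.30 and -0.11, and 6 of the 7 lay below the median of all genes, with Psma2 just above it.

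Structural beta subunits were spread a little wider. Psmb3 was the lowest core gene past the filter, with 541 in Mili-/- and 644 in Mili+/- (-0.36). Psmb2 was among the 3 highest, with 449 in Mili-/- and 405 in Mili+/- (0.04). Psmb1 and Psmb4 stood at -0.18 and -0.17. A second bright probe set of Psmb1 stood at -0.05.

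The constitutive catalytic subunits did not share a direction relative to all genes. Psmb6, which carries the caspase-like site, had 553 in Mili-/- and 491 in Mili+/- (0.06). Psmb7, with the trypsin-like site, had 544 in Mili-/- and 608 in Mili+/- (-0.27). Psmb5, with the chymotrypsin-like site, had 529.5 in Mili-/- and 563.5 in Mili+/- (-0.20), and its other probe set stood at -0.28. No second array per genotype bears on the gap between Psmb6 and Psmb7, and the SD of bright probe sets was 0.17.

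The immunoproteasome subunits, which replace these catalytic subunits in immune cells and after interferon, were unevenly placed, and Psmb8 and Psmb9 had low signals. Psmb9 had 15.7 in Mili-/- and 29.5 in Mili+/-, a log2 difference of -1.02. Both values lay under the array medians, so Psmb9 was not among the genes compared. Psmb8, whose gene lies near Psmb9 in the major histocompatibility region, had 45.7 in Mili-/- and 34.6 in Mili+/- (0.29), and reached the filter only in Mili-/-, a route open to genes that are higher there. Psmb10, which lies on chromosome 8, had 153 in Mili-/- and 151 in Mili+/- (-0.09). These 3 genes thus stood on both sides of the median, and the larger differences belonged to the dim probe sets.

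Psmb9 starts 225 bases from Tap1, a peptide transporter gene of the same pathway that runs in the opposite direction. Tap1 had 30.5 in Mili-/- and 45.9 in Mili+/- (-0.70), reaching the filter only in Mili+/-, and a second, dimmer probe set had 13.9 and 14.1 (-0.13). The bases between the starts are shown because Psmb9, by its 1 probe set, and Tap1, by the brighter of its 2, had lower signals in Mili-/-, with the CCAAT box (read on the other strand) in capitals. The 100 bases before Psmb8 follow, with a match to the interferon-gamma activated site core TTCNNNGAA in capitals. That core was held by 3 of the 37 windows (8.11%), against 7.81% of compared genes and 9.55% of all genes. The interferon-stimulated response element core, GAAA followed after 2 bases by a second GAAA, was held by 5 of the 37 windows (13.5%), against 3.21% of compared genes and 3.99% of all genes. The 5 are those of Psmb3, Psmd4, Psmd9, Psme1 and Psmg4.
Psmb9, chr17:34187331-34187555, minus strand: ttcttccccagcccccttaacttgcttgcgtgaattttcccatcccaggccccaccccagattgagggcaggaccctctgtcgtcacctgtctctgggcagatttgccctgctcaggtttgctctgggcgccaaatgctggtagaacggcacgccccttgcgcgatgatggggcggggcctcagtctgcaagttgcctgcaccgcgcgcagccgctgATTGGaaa
Psmb8, chr17:34198095-34198194, plus strand: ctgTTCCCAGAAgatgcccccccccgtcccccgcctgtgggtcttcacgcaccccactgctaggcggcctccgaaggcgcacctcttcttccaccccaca

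**Figure D2:**
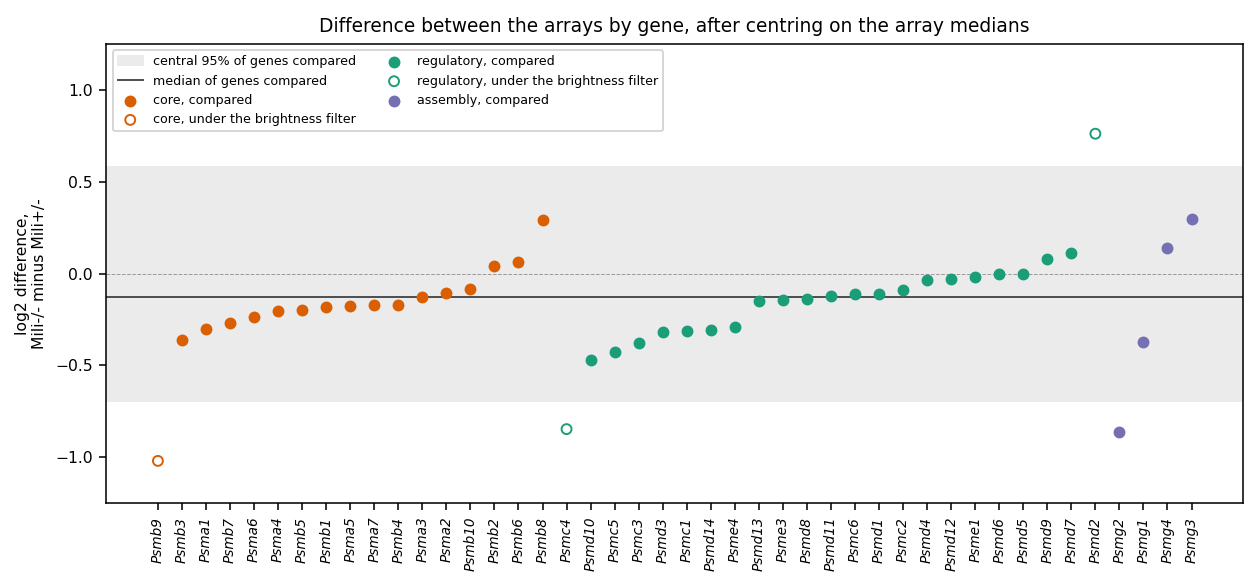
Log2 difference (Mili-/- minus Mili+/-) of each gene in increasing order within core, regulatory and Psmg genes, with filled points for genes compared and open points for genes under the brightness filter. All 37 filled core and regulatory points lie in the grey central 95% range, and of the filled points Psmg2 alone lies below it.

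Among bright regulatory genes the 2 lowest encode ATPases of the base. Psmc5 had 283 in Mili-/- and 352 in Mili+/- (-0.43), Psmc3 had 408 and 492 (-0.38), and Psmc1 had 287 and 330 (-0.31). All 3 probe sets of Psmc3 were lower in Mili-/-, at -0.38, -0.32 and -0.28. All 3 carry a suffix that marks shared sequence or relaxed selection, so they need not be independent readings. Psmc2 (-0.09) and Psmc6 (-0.11) lay at the median of all genes. Psmc4, whose probe set was dim at 7.2 in Mili-/- and 12.0 in Mili+/-, was measured at -0.85 but not compared. The 5 compared ATPase genes had a median of -0.31, with 3 below and 2 above the median of all genes.

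Scaffold and ubiquitin receptor genes of the base lay close to the middle. Psmd1, a large scaffold subunit, had 466 in Mili-/- and 467 in Mili+/- (-0.11). The receptor gene Psmd4, which captures ubiquitin chains, had 721 in Mili-/- and 685 in Mili+/- (-0.04). The probe set of the second scaffold gene, Psmd2, was dim at 20.3 in Mili-/- and 11.1 in Mili+/- (0.76) and was not compared.

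Of the 8 lid genes, 4 lay below and 4 above the median of all genes, with a median of -0.13. Psmd7 was the highest compared regulatory gene, with 451 in Mili-/- and 387 in Mili+/- (0.11). Psmd14 encodes the deubiquitinase that removes the chain as the substrate enters, and partners the product of Psmd7. It had 345 in Mili-/- and 396.5 in Mili+/- (-0.31). Psmd3 had 306 and 354 (-0.32), while Psmd6 (-0.01), Psmd12 (-0.03), Psmd11 (-0.12), Psmd8 (-0.14) and Psmd13 (-0.15) filled the space between. The lid genes thus lay on both sides of the median of all genes.

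Psmd5, Psmd9 and Psmd10 carry regulatory symbols, but their products are chaperones that help to build the base and leave before it works. Psmd10, which encodes the liver oncoprotein gankyrin, was the lowest compared regulatory gene, with 40.3 in Mili-/- and 51.8 in Mili+/- (-0.47), and reached the filter only in Mili+/-, a route open to genes that are lower in Mili-/-. Psmd9 had 138 in Mili-/- and 121 in Mili+/- (0.08), and Psmd5 had 388 in Mili-/- and 360.4 in Mili+/- (-0.003), so these 2 were among the 3 highest compared regulatory genes.

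Genes of the alternative activators were also near the middle. Psme1, induced by interferon together with the immunoproteasome, had 534 in Mili-/- and 501 in Mili+/- (-0.02). Psme3, which encodes a nuclear activator, stood at -0.14. Psme4, whose product is known in mouse testis for the acetylation-dependent breakdown of core histones, had 145 in Mili-/- and 164 in Mili+/- (-0.29). Its distance from the median of all genes, -0.16, was smaller than the SD between bright probe sets.

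**Figure D3:**
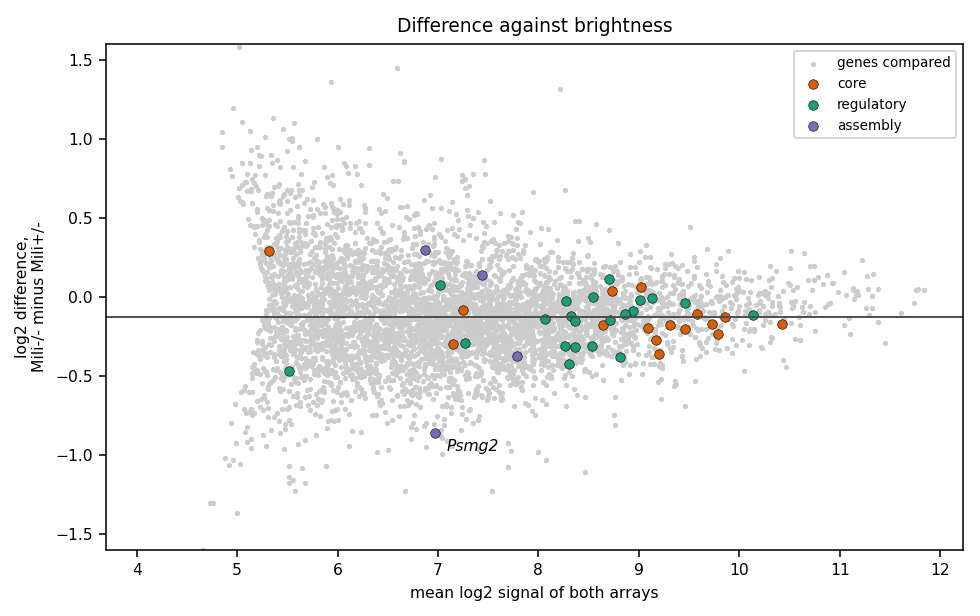
Log2 difference (Mili-/- minus Mili+/-) against the mean log2 signal of both arrays for the genes compared (grey; 9 lie beyond 1.6 either way) and the core, regulatory and Psmg genes (coloured). The line marks the median of -0.13, around which the bright subunit genes lie, and Psmg2 stands below them.

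Among the genes compared, differences were spread more widely for the 4 Psmg chaperones than for core or regulatory genes (SD 0.53, against 0.16 and 0.17). These sets were not matched for brightness. All genes compared had an SD of 0.32, and those at or above the 75th percentile on both arrays 0.21. Psmg2 and Psmg3 lay outside that brighter set. The Psmg chaperones assemble the alpha ring as pairs, Psmg1 with Psmg2 and Psmg3 with Psmg4. Psmg2 had 96.6 in Mili-/- and 163 in Mili+/- (-0.86, 1.82-fold lower), and 1.001% of the genes compared stood lower. Psmg1 had 201 in Mili-/- and 241 in Mili+/- (-0.37). Psmg3 had 135 in Mili-/- and 102 in Mili+/- (0.30), and its dimmer probe set, at 29.9 and 21.7, stood at 0.35. Psmg4 had 188.5 in Mili-/- and 159 in Mili+/- (0.14). The first pair was therefore lower and the second higher than the median of all genes. Psmg2 has 1 probe set, and no second measurement bears on its value.

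Where a member had several probe sets, dim ones often differed from bright ones. Of 8 such members, 4 spanned more than 0.5. The other probe sets of Psmb4, at 14.7 in Mili-/- and 7.7 in Mili+/- (0.82) and at the floor (0.04), contrast with its main one at 1350.4 and 1409 (-0.17). The dim probe set of Psmb1 had 20.8 in Mili-/- and 14.3 in Mili+/- (0.43), and the second of Psmc5 had 13.2 and 10.2 (0.26). Psmd11 differed among probe sets past the filter, at -0.46 (223 in Mili-/- and 284 in Mili+/-), -0.12 (320 and 322) and 0.32 (53.0 and 39.3). The suffix of the last marks relaxed probe selection.

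**Figure D4:**
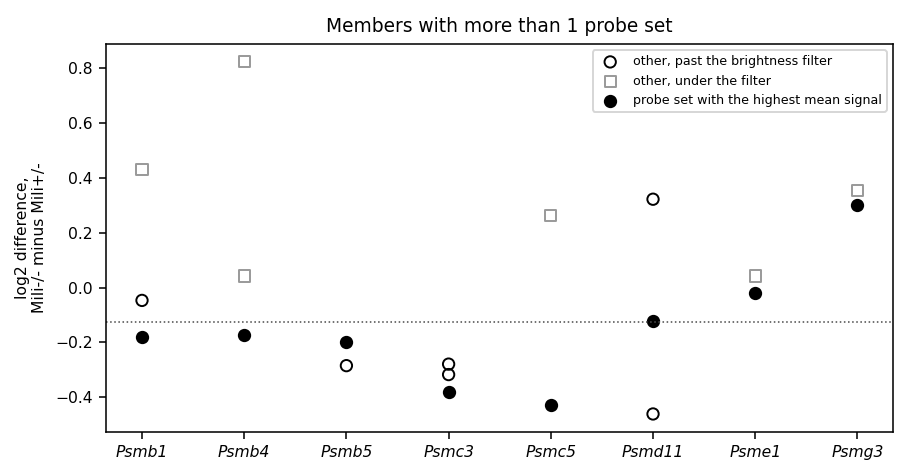
Log2 difference (Mili-/- minus Mili+/-) of every probe set of the 8 members with more than 1, with the probe set used filled, others past the brightness filter as open circles and dim ones as open squares. Psmd11 spans from -0.46 to 0.32 among probe sets past the filter, and the dim probe sets of Psmb1, Psmb4 and Psmc5 lie above the one used.

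The genes around the proteasome were read from lists of the ubiquitin pathway. The 4 ubiquitin genes had no probe set with 1 symbol. The 4 compared E1 enzyme genes, which activate ubiquitin and its relatives, had a median of -0.13, and none reached 1.5-fold: Sae1 stood at -0.24, Uba3 at -0.17, Nae1 at -0.09 and Uba1y at -0.05. Of 17 compared E2 genes, which carry ubiquitin to substrates, 12 lay below the median of all genes, with a list median of -0.29. At 1.5-fold, 2 were lower, against the 5.04% of all genes. They were Ube2e1 (133 in Mili-/- and 212 in Mili+/-, -0.78) and Ube2c, the E2 of the anaphase-promoting complex (28.5 and 39.7, -0.59), which reached the filter only in Mili+/-. Ube2v2 (-0.53) and Ube2v1 (-0.43) followed. Ube2e1 and Ube2c were each read by 1 probe set, with a suffix that marks shared sequence or relaxed selection.

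Cullin-RING scaffold and COP9 signalosome genes, which build and switch a large ligase family, had a median of -0.18 over 15 genes, with 9 below the median of all genes. Cops2 had 48.3 in Mili-/- and 67.2 in Mili+/- (-0.59), the only one of the 15 past 1.5-fold, against 7.52% of all genes either way, and its dimmer probe set stood at -0.52. Rnf7 stood at -0.52, Cops5 at -0.35 and Cul3 at -0.34.

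Cofactors of the proteasome, with its maturation and transcription factors, had a median of -0.31 over 11 genes, and 9 lay below the median of all genes. Ube3a, a ligase that binds the proteasome, had 62.3 in Mili-/- and 114 in Mili+/- (-0.98), and Usp14, the deubiquitinase of the base, had 177 and 265 (-0.69). These 2 of the 11 passed 1.5-fold, against 5.04% of all genes lower by that much. Pomp, the maturation protein of the core, had 277.5 in Mili-/- and 386 in Mili+/- (-0.58), just short of it, and Ecpas stood at -0.40. The factor gene Nfe2l1 had 366 in Mili-/- and 356 in Mili+/- (-0.07), with a second probe set at -0.14. Members holding its element's core had a median of -0.07 (6 compared), against -0.14 for the 28 without it. The same split gave -0.12 (13) against -0.14 (21) for the ETS core and -0.20 (12) against -0.11 (22) for the CCAAT box. It gave -0.04 (2) against -0.14 (32) for the interferon-gamma activated site core. For the interferon-stimulated response element core it gave -0.02 (5) against -0.14 (29). A link between any motif and the differences was not tested.

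Substrate delivery genes, which bring ubiquitinated proteins to the proteasome, were the list with the highest median, 0.005 over 8 genes, with 7 above the median of all genes. The shuttle gene Rad23b had 207 in Mili-/- and 115 in Mili+/- (0.74), but a second bright probe set had 145 and 162 (-0.27), the opposite direction. Ubqln1 stood at 0.29 and 0.11 in its 2 probe sets, Ube4b at -0.33 and Faf1 at -0.11. Another probe set of Faf1 past the filter stood at -0.41. Bag6 had 203.5 in Mili-/- and 187 in Mili+/- (0.01), with others past the filter at 0.145, 0.04 and -0.36. The number of genes above the median of all genes thus depended on the probe set used. Vcp, the ATPase that extracts substrates, had 785 in Mili-/- and 722 in Mili+/- (0.01).

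Genes of the class I peptide pathway, which uses proteasome products, had a median of -0.33 over 8 genes, of which 7 lay below the median of all genes. Besides Tap1 (-0.70), Pdia3 had 280.3 in Mili-/- and 399 in Mili+/- (-0.62). These 2 of the 8 passed 1.5-fold, against 5.04% of all genes lower by that much, and Tap1 passed the filter only in Mili+/-, where it was higher. The interferon response factor gene Irf1 stood at -0.37 and H2-D1 at -0.34, with other probe sets of H2-D1 at -0.48 and -0.33, the last under the filter. All 3 probe sets of H2-D1 carry a suffix that marks shared sequence or relaxed selection, so they need not be independent readings.

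**Figure D5:**
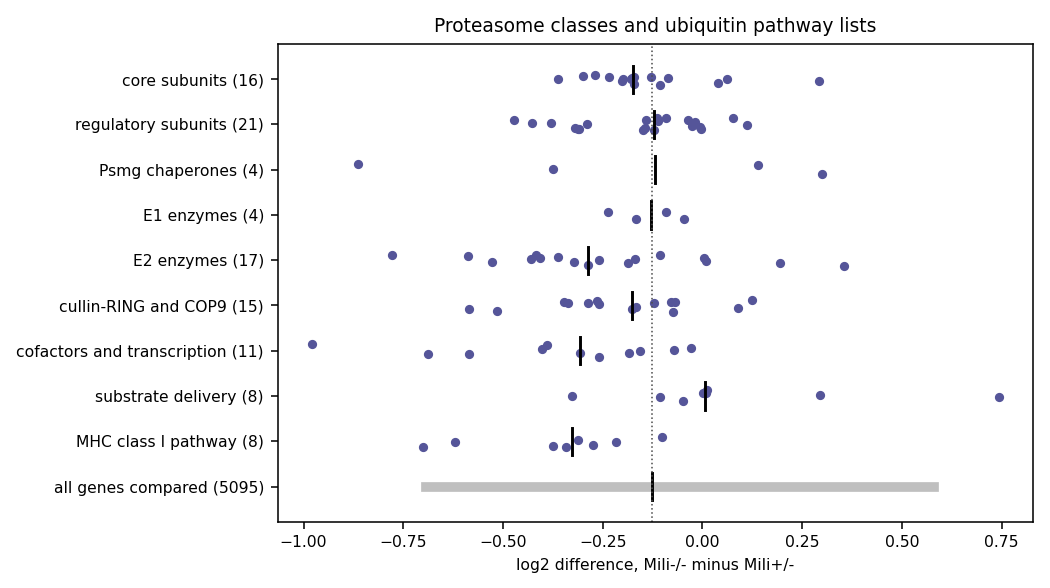
Log2 difference (Mili-/- minus Mili+/-) of the compared genes in each proteasome class and ubiquitin pathway list, with the number of genes in brackets, a black bar at each median and a dotted line at the median of all genes. The grey bar spans the central 95% of all genes, from -0.69 to 0.58, and holds all core and regulatory genes.

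Most markers of germ cells and somatic testis cells reached the median of at least 1 array, and Sycp3, Insl3 and Adgre1 did not. Over 6 germ cell markers, the summed signal was 1940 in Mili-/- and 2281 in Mili+/-, most of it from Dazl (1191 and 1342). The 5 germ cell markers compared had a median of -0.29, with Stra8 at -0.72 and Ddx4 at -0.12. No marker was at 0, but Sycp3 (0.6 in Mili-/- and 1.1 in Mili+/-) and the macrophage marker Adgre1 (6.2 and 5.7) lay below the floors of 7.0 and 6.3 on these arrays, so their levels were not resolved. Medians over the compared markers were 0.07 for Sertoli cells (5 genes), -0.29 for Leydig cells (4), 0.01 for peritubular cells (3) and -0.07 for macrophages (4). Of the Leydig markers, Star (35.5 in Mili-/- and 38.5 in Mili+/-, -0.23) passed the filter only in Mili+/-, where it was higher, so that median depends in part on the filter. The summed signal of 4 erythroid markers was 1956 in Mili-/- and 1472 in Mili+/-, most of it from the haemoglobin gene Hba-a1 (1828 and 1397). The summed signal of 4 adipose markers was 351 in Mili-/- and 166 in Mili+/-. Medians are not given for these lists, since Alas2 and Rhd of the erythroid and Adipoq, Fabp4 and Car3 of the adipose markers passed the filter only in Mili-/-, where they were higher. The part of these markers in the values of the proteasome genes was not tested.

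The genes that match the symbol pattern without encoding a subunit both stood below the median of all genes. Psmc3ip, a partner in meiotic recombination named for binding the product of Psmc3, was dim at 20.5 in Mili-/- and 32.8 in Mili+/- (-0.79) and was not compared. Psme3ip1, named for binding the product of Psme3, had 217 in Mili-/- and 288 in Mili+/- (-0.52).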

How the data were processed

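The authors deposited intensities on a linear scale, 1 for each probe set of a single-colour array, per the value table. From the values, they were scaled to a common level (the mean without the lowest and highest 2% was 100.05 on both arrays). Detection calls, the tool and its background correction were not given in the sources used here. Control probe sets (66 of 12488) were left out. Of the other 12422, 10833 had 1 symbol, 396 had several and 1193 had none. Symbols came from a platform annotation updated through Entrez IDs (10817 matched RefSeq, assembly GRCm38.p6).

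Signals were floored at each array's 20th percentile, log2-transformed and centred by subtracting the array median. The filter required the median of either array. Each genotype had 1 array, so no test was run. The number of arrays limits the precision. Values were given for the catalytic subunits, Psme4, the 3 highest and 3 lowest compared core and regulatory genes and members whose probe sets differed by more than 0.5. From each pathway list, the up to 4 compared genes with the largest absolute difference were named. Other genes with signals, and the motifs, were chosen after values were seen; longer forms of 2 motif cores were also searched and are not reported. The members and lists were chosen with earlier results of these data known. The code was tested on simulated data. Python 3.11.15, NumPy 2.4.6, pandas 2.3.3, statsmodels 0.14.6 and matplotlib 3.10.9 were used.

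The alternatives were no centring, quantile normalization, loess on brightness (span 0.4), no floor or one at the 40th percentile, no filter, a filter at the 75th percentile or one that both arrays had to pass, the mean over probe sets, omitting probe sets with a suffix (shared sequence or relaxed selection), and folds of 1.5 and 3. Centring on bright genes, and medians without Psmb8 or without Psmd5, Psmd9 and Psmd10, were added after the data were seen.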

Additional observations from a re-analysis of the deposited data

How the results depend on the processing

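The core median lay below the median of all compared genes under every alternative listed, by -0.12 to -0.04, and the regulatory median lay between -0.07 and 0.01 relative to it, so its side depended on the setting. Leaving out the centring or centring on bright genes shifts every gene alike, so neither could change these distances. Changing the floor, which acts only on signals under the array medians, also left them as they were. As raw values, the core median was -0.064 without centring and -0.044 with centring on bright genes. The regulatory median was -0.012 without centring, 0.002 after quantile normalization, -0.0018 after loess and 0.008 with centring on bright genes. The count past 2-fold became 1 of 44 (Psmb9) without the filter and 1 of 41 (Psmg2) at 1.5-fold, and stayed 0 of 41 at 3-fold. At 1.5-fold the share over all genes compared was 7.52%. The share over all genes was not computed without the filter or at 3-fold, so those counts have no background beside them. Single genes moved by less than the SD of 0.31 except Psmb4 (0.23 with the mean over probe sets, 0.82 without suffixed probe sets) and Psmc5 (-0.08 with the mean). Those means took in dim probe sets. Psma3, Psmb7, Psmc3, Psmd9 and Psmd12 had only suffixed probe sets and so no value when these were omitted. No paired analysis was possible because each genotype had 1 array, and none could be left out. Probe sets under the array medians, Psmb9, Psmc4 and Psmd2 among them, limit what can be said of these genes.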

Other observations

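The activator subunit encoded by Psme2, the partner of the Psme1 product, could be read only through probe sets that the annotation also assigns to its near copy Psme2b. For the brighter of these the signal was 209.9 in Mili-/- and 213 in Mili+/- (log2 difference -0.13), at the median of all genes compared. The other was dim, at 2.5 in Mili-/- and 3.5 in Mili+/-. Outside the filter, Cul7, a cullin gene, had 18.6 in Mili-/- and 6.2 in Mili+/-, where the floor was 6.3. Uba7, the E1 of an interferon-induced modifier, had 33.2 in Mili-/- and 22.4 in Mili+/- (0.46).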
